A study of Rorippa islandica and Rorippa pyrenaica with 24 samples.

Results

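The genes described here were expressed at a measurable basal level in air-grown young leaves of *Rorippa islandica* and *R. stylosa* and were much higher, to a similar degree in both species, once the plants were under water. They were chosen from the measured values: 73 of 30646 genes met every limit of the rule below. The study looked for a flood-tolerant dicot that can be worked with genetically, and for that purpose set the leaf transcriptome of the tolerant *R. islandica* under water beside that of the sensitive *R. stylosa* (synonym *R. pyrenaica*). RNA-seq was done on young leaves of soil-grown plants, and the 8 groups were *R. islandica* submerged for 24 h, its controls at 24 h, *R. islandica* submerged for 48 h, its controls at 48 h, and the same 4 groups of *R. stylosa*, with 3 libraries each and 24 in all. Submerged plants stood in transparent boxes of tap water in a day-night rhythm, and controls stood in empty boxes. *R. islandica* was raised from seed, whereas the *R. stylosa* plants were propagated vegetatively, separately for each replicate. Reads of both species were assigned to the transcripts of *R. islandica*, so a lower level in *R. stylosa* and a poorer match of its reads to those transcripts cannot be told apart.

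A leaf in air exchanges gas freely through its stomata, whereas a film of water around it hinders the entry of oxygen and carbon dioxide and the escape of ethylene, a hormone made by the leaf itself. Genes that respond to this state in plants include those of alcoholic fermentation, of the turnover of reserves and of ethylene signalling. A gene of this kind can be silent in air, or it can be transcribed at a basal level from which it is increased. The 73 genes were chosen to be of the second sort. The deposited tables give transcript identifiers of *R. islandica* (Roisl, then the scaffold and the number of the gene on it), an orthogroup and a length, but no names, so neither names nor functions are given here, and the leaf label could not be checked against marker genes.

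Levels are given as CPM, the estimated counts of a gene, with its isoforms summed, per 1000000 counts of the library. The log2 ratio of a comparison was taken between the mean CPM of 3 submerged and 3 control libraries, after adding 0.5 to both. A gene was kept where this ratio was at least 2.5 in both species at 24 h and at 48 h, which held for 230 genes. The ratio of *R. islandica* minus that of *R. stylosa* had to lie within 1 of 0 at both times, which left 116. All 4 control means had to reach 0.5 CPM, which left 78, all 8 means had to stay below 1000 CPM, which left 77, and the level in submerged *R. islandica* had to change by less than 1 log2 unit between 24 and 48 h, which left 73. The ratios, their similarity between the species and the flat time course of submerged *R. islandica* were thus fixed by the choice and are described without a test. Just inside the lowest ratio were Roisl.0074s1022 and Roisl.0091s0319, with smallest ratios of 2.501 and 2.503. Just outside it, with every other limit met, were Roisl.0024s0241 at 2.48 and Roisl.0005s0113 at 2.46.

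Library totals ran between 24127592 and 66692318 counts. In bulk leaf RNA, fewer cells of a type and less RNA per cell cannot be told apart. The 73 genes together took 0.681% to 0.972% of the counts in the 12 submerged libraries, against 0.0547% to 0.0882% in the 12 control libraries. In every submerged library the median of the 73 genes lay between 67.5 and 94.0 CPM, whereas in the control libraries it lay between 4.61 and 8.04 CPM. For all 73 genes, each submerged library stood above each control library of its species and time in all 4 comparisons, which was also the case for 22.6% of the 22226 genes tested. The closest approach was a lowest submerged library 2.02 times as high as the highest control library.

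**Figure D1:**
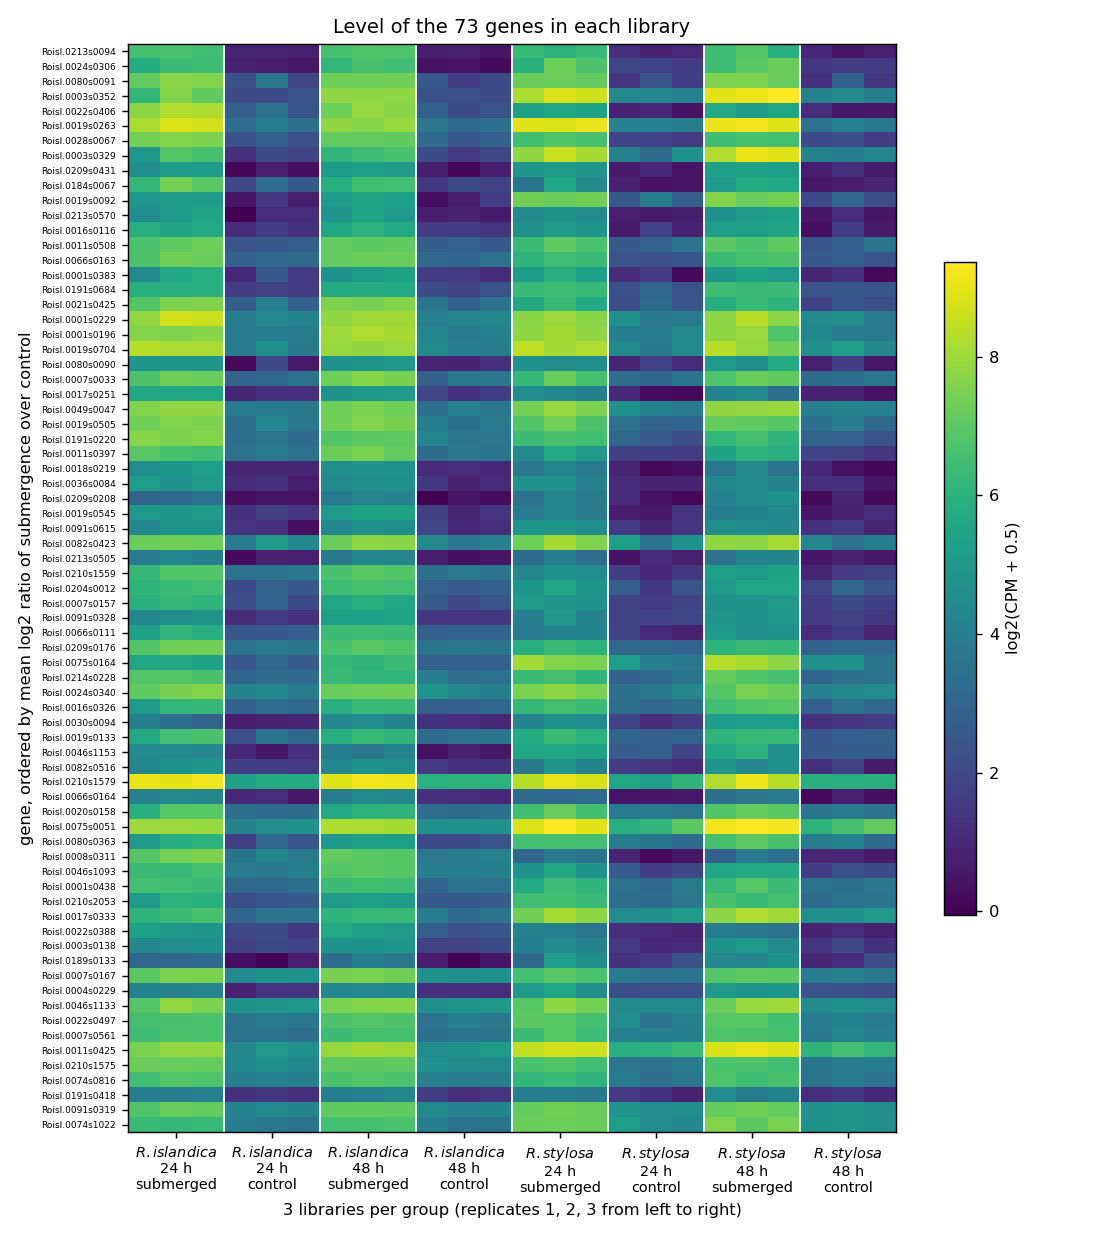
Level of the 73 genes in the 24 libraries as log2(CPM + 0.5), with 1 row per gene, ordered by the mean log2 ratio of submergence over control, and 1 column per library. Every block of 3 submerged libraries is brighter than the control block to its right, and the library medians over the genes are 67.5 to 94.0 CPM against 4.61 to 8.04 CPM.

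Over the 73 genes, the median log2 ratio of submergence over control in *R. islandica* was 3.46 at 24 h (range 2.51 to 5.71) and 3.38 at 48 h (2.51 to 6.12). In *R. stylosa* it was 3.13 at 24 h (2.501 to 5.31) and 3.35 at 48 h (2.503 to 5.72). The smallest of a gene's 4 ratios was 3 or more in 35 genes, 4 or more in 11 and 5 or more in 1. Scaling by TMM instead of library totals, which sets the bulk of the genes to no change, lowered the median ratio over all genes tested by 0.07 and 0.12 in *R. islandica* and by 0.13 and 0.17 in *R. stylosa* at 24 and 48 h. On that scale the medians of the 73 genes were 3.32 and 3.20 in *R. islandica* and 2.91 and 3.13 in *R. stylosa* at 24 and 48 h.

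Within the limits of the rule, the ratio was the higher one in *R. islandica* for 53 of the 73 genes at 24 h and for 35 at 48 h. It was higher in *R. islandica* at both times for 32 genes and in *R. stylosa* at both times for 17. The median difference of the ratios, *R. islandica* minus *R. stylosa*, was 0.30 at 24 h and -0.06 at 48 h, beside -0.07 at both times over all genes tested. Between the times, the ratio was higher at 48 h than at 24 h in 39 of the 73 genes in *R. islandica* and in 49 in *R. stylosa*.

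**Figure D2:**
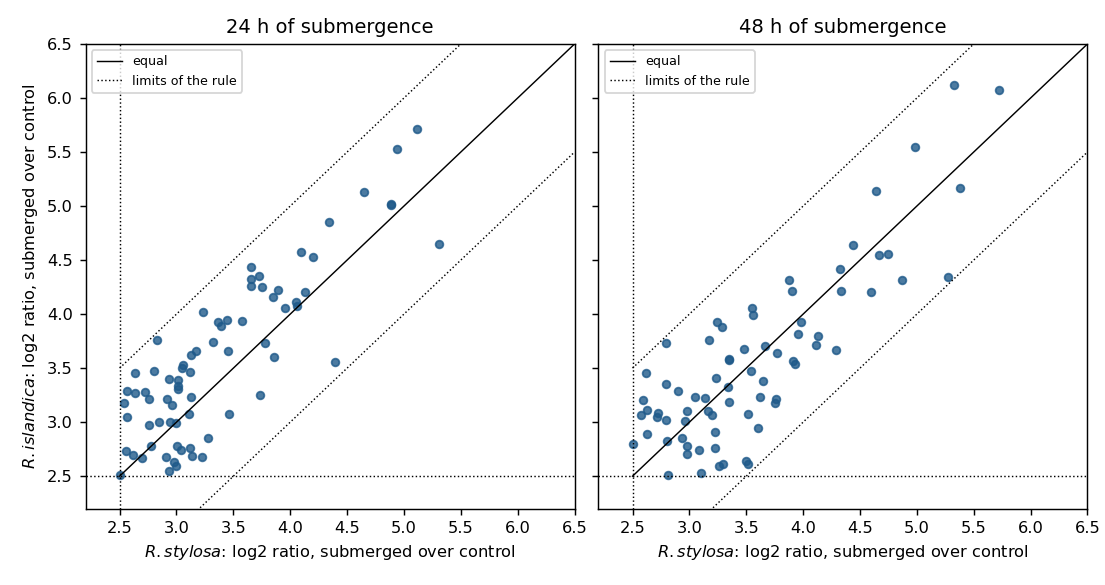
Log2 ratio of submergence over control of the 73 genes in *R. islandica* (vertical axis) against *R. stylosa* (horizontal axis), at 24 h and at 48 h, with 1 point per gene. Dotted lines are the limits that chose the genes (a ratio of 2.5 and a species difference of 1), and 53 points lie above the line of equality at 24 h against 35 at 48 h.

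The gene with the largest smallest ratio was Roisl.0213s0094. In *R. islandica* it had 95.5, 104 and 89.3 CPM after 24 h of submergence, against 1.43, 1.44 and 1.18 CPM in 24 h controls, and 97.7, 112 and 108 CPM after 48 h of submergence, against 1.15, 1.25 and 0.847 CPM in 48 h controls. In *R. stylosa* the 24 h libraries of Roisl.0213s0094 had 78.1, 61.8 and 78.1 CPM under water, against 1.91, 1.28 and 1.66 CPM in air, and the 48 h libraries had 85.9, 119 and 59.1 CPM under water, against 1.48, 0.862 and 1.18 CPM in air. All 12 control libraries were thus below 2 CPM and all 12 submerged libraries far above them. Its log2 ratios were 5.71 and 6.07 in *R. islandica* and 5.11 and 5.72 in *R. stylosa* at 24 and 48 h. With a coding length of 396 bases it stood at 229 CPM per kb on average under water, against 3.3 CPM per kb in air.

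Roisl.0024s0306 combined the largest single ratio of the 73 genes, 6.12 in *R. islandica* at 48 h, with a basal level that differed between the species. *R. islandica* had 55, 84.4 and 85.7 CPM after 24 h of submergence, against 1.33, 1.08 and 0.988 CPM in controls, and 71.9, 102 and 88.4 CPM after 48 h, against 0.788, 0.867 and 0.635 CPM. *R. stylosa* had 61, 156 and 107 CPM of Roisl.0024s0306 after 24 h of submergence, against 3.37, 3.14 and 2.59 CPM in controls, and 86, 125 and 153 CPM after 48 h, against 2.29, 2.75 and 2.56 CPM. The control libraries of the species did not overlap, those of *R. islandica* being lower, whereas the submerged libraries did.

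The other 2 genes with the strongest smallest ratio were Roisl.0080s0091 and Roisl.0022s0406. Roisl.0080s0091 had 137, 211 and 193 CPM in *R. islandica* submerged for 24 h, against 4.42, 12.4 and 3.27 CPM in controls, and 157, 154 and 160.0 CPM at 48 h, against 5.45, 2.5 and 3.66 CPM. Its *R. stylosa* libraries held 151, 151 and 138 CPM after 24 h of submergence, against 2.16, 4.74 and 2.73 CPM in controls, and 185, 188 and 143 CPM after 48 h, against 1.91, 6.76 and 2.28 CPM. All submerged libraries of Roisl.0080s0091 lay between 137 and 211 CPM, while its control libraries spread over 1.91 to 12.4 CPM, with replicate 2 the highest in 3 of the 4 control groups. Roisl.0022s0406 was the more abundant in *R. islandica*, with 209.7, 304 and 299 CPM after 24 h of submergence, against 6.55, 10.4 and 4.78 CPM in controls, and 156, 233 and 204 CPM after 48 h, against 6.81, 3.85 and 4.66 CPM. In *R. stylosa*, Roisl.0022s0406 reached only 38.7, 46.3 and 42.7 CPM after 24 h and 48.7, 33.6 and 44.3 CPM after 48 h of submergence, against 1.32, 1.5 and 0.818 CPM in 24 h controls and 1.7, 0.97 and 0.972 CPM in 48 h controls. Its log2 ratios were nevertheless 5.13 and 5.14 in *R. islandica* and 4.65 and 4.64 in *R. stylosa*.

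Averaged over the 4 submerged and the 4 control groups, the genes covered a wide range of levels, between 14.4 and 480 CPM under water (median 90.8) and between 0.861 and 58.6 CPM in air (median 7.11). Over all genes tested the medians were 10.8 CPM under water and 8.80 CPM in air. The floor and the ceiling of the rule bound the levels of the 73 genes and not those of all genes tested. The medians are thus given as a description. Per kb of coding length the 73 genes had a median of 85.3 CPM under water (11.2 to 567) and 6.85 CPM in air (0.815 to 83.7), beside 9.98 and 7.95 CPM per kb over all genes tested. Genes with a higher basal CPM tended to have a lower mean log2 ratio (Spearman's rho -0.35 over the 73 genes), a relation that the floor and the ceiling of the rule also shape and that shares its control libraries between both measures.

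Of the 4 genes with the highest mean CPM under water, all but Roisl.0019s0263 also had a high basal level. Their mean in air was 49.5 CPM or more, beside an upper quartile of 27.8 CPM over all genes tested. That of Roisl.0019s0263 was 13.0 CPM. Roisl.0210s1579 had 544, 505 and 587 CPM in *R. islandica* and 327, 534 and 446 CPM in *R. stylosa* after 24 h of submergence, against 40.0, 54 and 53 CPM and 44.6, 36.5 and 68.2 CPM in their controls. Its 48 h libraries were alike, with 478, 585 and 566 CPM in *R. islandica* and 299.7, 557 and 331 CPM in *R. stylosa* under water, against 62.3, 65 and 62.8 CPM and 59, 58.1 and 60.9 CPM in air. All control libraries of Roisl.0210s1579 were at 36.5 CPM or more, and the species overlapped in every group except the 48 h controls, where *R. islandica* was slightly higher in CPM. With TMM scaling the fitted log2 difference in those controls was -0.001 ± 0.24 (SE). Roisl.0075s0051 had 256, 255 and 241 CPM in *R. islandica* after 24 h of submergence, against 17.4, 23.5 and 26.2 CPM in controls, and 299, 299 and 274 CPM after 48 h, against 25.2, 27.4 and 25.8 CPM. In *R. stylosa*, Roisl.0075s0051 had 461, 649 and 506 CPM after 24 h of submergence, against 59.2, 70.5 and 129 CPM, and 573, 661 and 609 CPM after 48 h, against 65.9, 95.6 and 138 CPM. It was lower in every *R. islandica* library than in the *R. stylosa* libraries of the same treatment.

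Roisl.0019s0263 combined a high level under water with a strong ratio. In *R. islandica* it had 289.8, 465 and 427 CPM after 24 h of submergence, against 9.47, 15.2 and 10.3 CPM in controls, and 224, 202 and 238 CPM after 48 h, against 12.4, 9.05 and 9.99 CPM. Its *R. stylosa* values were 490.0, 469 and 540.1 CPM after 24 h of submergence, against 17.2, 17.1 and 14.9 CPM, and 546, 584 and 485 CPM after 48 h, against 10.9, 16.6 and 12.9 CPM. In *R. islandica* all 3 submerged libraries were lower at 48 h than at 24 h, and its ratio was 4.34 at 48 h and 5.02 at 24 h, whereas in *R. stylosa* the submerged libraries of the times overlapped and the ratios were 5.27 and 4.89. Roisl.0011s0425, with the highest level per kb of the 73 genes (567 CPM per kb under water, against 83.7 CPM per kb in air), had 178, 231 and 229 CPM in *R. islandica* after 24 h of submergence, against 19.4, 31.5 and 25 CPM in controls. The 48 h libraries of Roisl.0011s0425 in *R. islandica* had 235, 276 and 259 CPM under water, against 22.7, 26.2 and 33.3 CPM in air. In *R. stylosa*, Roisl.0011s0425 had 363, 422 and 411 CPM and 450.5, 525 and 442 CPM after 24 and 48 h of submergence, against 59.5, 62.4 and 79.2 CPM and 69.1, 93.5 and 71.6 CPM in controls. Every *R. islandica* library of this gene was below every *R. stylosa* library of the same treatment and time.

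The rule did not set the difference in level between the species directly. Its limit on the difference of the CPM ratios nevertheless ties the difference under water to that in air, and its floor in all 4 control groups leaves out genes that were counted in only 1 species. The level in *R. islandica* was compared with that in *R. stylosa* under water and in air by edgeR's quasi-likelihood test against a log2 difference of 1 (glmTreat), with Benjamini-Hochberg adjustment over 22226 genes and a threshold of 0.05. All 73 genes passed the filter on low counts in each model used here. After 24 h of submergence, 9 of the 73 genes were higher and 4 lower in *R. islandica*, where 18.6% and 17.7% of all genes tested were. After 48 h, 6 were higher and 8 lower, beside 18.4% and 17.2% of all genes. At 24 h in air, 7 were higher and 9 lower, beside 17.3% and 14%, and at 48 h in air, 7 were higher and 9 lower, beside 17.1% and 13.4%. The genes with counts in only 1 species are among all genes tested and not among the 73, so the shares are not read against each other.

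The median log2 difference of the 73 genes, *R. islandica* over *R. stylosa*, was 0.39 at 24 h and -0.02 at 48 h under water, beside 0.01 and 0.01 over all genes tested, and -0.04 at 24 h and -0.02 at 48 h in air, beside 0.02 and 0.00. In air at both times, 6 genes were higher (16% of all genes tested) and 7 lower (12.4%). In all 4 groups, 5 genes were higher (12.2%) and 4 lower (9.05%). In none of the 4 groups did 51 of the 73 genes pass the threshold in either direction. This does not show that their levels were equal, since only 15 of the 73 genes passed nowhere when tested against no difference. Tested in this way, 30 were higher and 15 lower in *R. islandica* after 24 h of submergence (38.1% and 37.1% of all genes) and 23 and 19 after 48 h (38.1% and 36.4%). At 24 h in air 22 were higher and 21 lower (36.4% and 34.4%), and at 48 h 19 and 20 (35.6% and 34.5%). The numbers depended on single libraries. With 1 library left out, 6 to 10 genes were higher in *R. islandica* after 24 h of submergence and 5 to 7 after 48 h. Without *R. islandica* 24 h submergence replicate 1, or without *R. stylosa* 24 h submergence replicate 2, 2 genes were lower after 24 h of submergence. Without *R. stylosa* 48 h submergence replicate 2, 5 genes were lower after 48 h of it. DESeq2 called 2 lower genes at 24 h and 4 at 48 h. No share over all genes was taken with DESeq2 or with a library left out.

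**Figure D3:**
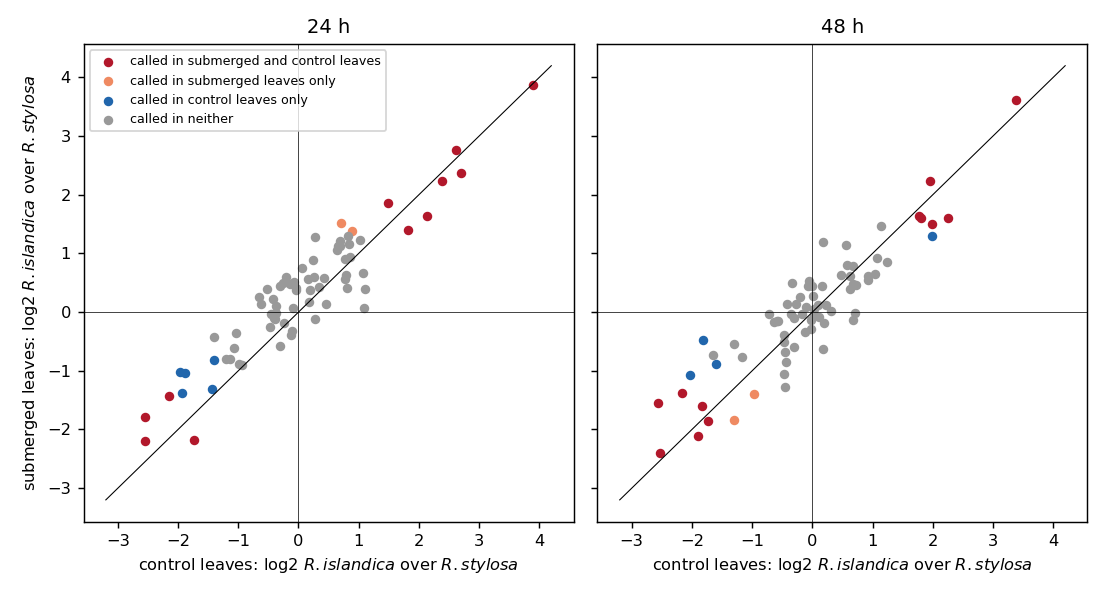
Log2 difference in level between the species, *R. islandica* over *R. stylosa*, in submerged leaves (vertical axis) and in control leaves (horizontal axis) of the 73 genes at 24 h and 48 h. Colours mark genes past a log2 difference of 1 by edgeR's test, and the points lie along the line of equality, which the rule's limit on the difference of the CPM ratios favours.

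The largest difference was that of Roisl.0008s0311, the shortest of the 73 genes with a coding length of 237 bases. In *R. islandica* it had 115, 169.9 and 181 CPM after 24 h of submergence, against 11.8, 18.9 and 12.6 CPM in controls, and 137, 124 and 117 CPM after 48 h, against 12.4, 14.8 and 16.8 CPM. In *R. stylosa* it had 8.0, 14.2 and 11.8 CPM after 24 h of submergence, against 1.35, 0.606 and 0.927 CPM, and 6.64, 14.2 and 10.1 CPM after 48 h, against 1.46, 1.45 and 1.05 CPM. The submerged libraries of *R. stylosa* overlapped with the control libraries of *R. islandica*, and no library overlapped between the species within a treatment. The log2 difference (± SE) between the species was 3.86 ± 0.28 and 3.61 ± 0.28 under water and 3.89 ± 0.33 and 3.38 ± 0.32 in air at 24 and 48 h (edgeR, adjusted p between 2.06e-09 and 2.18e-07).

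Roisl.0210s1559 and Roisl.0011s0397 were also higher in *R. islandica* in all 4 groups, as was Roisl.0022s0406. Roisl.0210s1559 had 75.2, 113 and 113 CPM in *R. islandica* and 18.4, 26.4 and 22.9 CPM in *R. stylosa* after 24 h of submergence, against 10.6, 10.8 and 12.9 CPM and 2.67, 1.53 and 2.32 CPM in their controls. At 48 h its values were 102, 126 and 112 CPM in *R. islandica* and 38.1, 33.7 and 41.2 CPM in *R. stylosa* under water, against 10.4, 13.9 and 11.2 CPM and 1.37, 2.34 and 3.22 CPM in air. No library of Roisl.0210s1559 overlapped between the species within a treatment, and its log2 difference was 2.24 ± 0.21 under water and 2.39 ± 0.25 in air at 24 h (adjusted p 3.44e-06 and 7.01e-06, edgeR) and 1.60 ± 0.21 and 2.26 ± 0.24 at 48 h (adjusted p 0.00312 and 1.91e-05, edgeR). For Roisl.0022s0406, whose libraries are given above, it was 2.76 ± 0.25 under water and 2.62 ± 0.31 in air at 24 h and 2.23 ± 0.24 and 1.96 ± 0.31 at 48 h (adjusted p between 2.34e-07 and 0.00249, edgeR).

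For Roisl.0011s0397, the libraries of *R. islandica* had 120.1, 97.9 and 88.9 CPM after 24 h of submergence, against 10.6, 14.2 and 10.5 CPM in controls, and 148, 179.6 and 137 CPM after 48 h, against 9.21, 13.2 and 11.7 CPM. Those of *R. stylosa* had 20.2, 51.4 and 32.1 CPM after 24 h of submergence, against 2.86, 2.73 and 2.48 CPM, and 40.8, 65.8 and 57.9 CPM after 48 h, against 3.1, 2.88 and 2.11 CPM. The species did not overlap in any of the 4 groups. The log2 difference of Roisl.0011s0397 was 1.65 ± 0.25 after 24 h of submergence, and 2.14 ± 0.28 and 1.99 ± 0.28 in air at 24 and 48 h. After 48 h of submergence it was 1.49 ± 0.24 (adjusted p 0.0206, edgeR), a call that was lost without *R. islandica* 48 h submergence replicate 2 (adjusted p 0.0862), without *R. stylosa* 48 h submergence replicate 1 (0.106) and with DESeq2 (0.209).

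In the other direction, Roisl.0003s0329 was lower in *R. islandica* in all 4 groups. *R. islandica* had 30.8, 114 and 97.7 CPM after 24 h of submergence, against 1.82, 3.79 and 3.1 CPM in controls, and 70.4, 86.9 and 101 CPM after 48 h, against 3.75, 2.4 and 3.51 CPM. *R. stylosa* had 225, 396 and 276 CPM of Roisl.0003s0329 after 24 h of submergence, against 16.6, 8.63 and 25.8 CPM, and 306, 549 and 497 CPM after 48 h, against 17.5, 15.5 and 18.7 CPM. The species did not overlap in any group, although replicate 1 of *R. islandica* at 24 h of submergence stood well below the other 2 libraries and gave Roisl.0003s0329 the widest spread of any of the 73 genes in any group (SD 1.02 of log2(CPM + 0.5)). Its log2 difference was -1.78 ± 0.40 and -2.39 ± 0.41 under water and -2.55 ± 0.45 and -2.53 ± 0.45 in air at 24 and 48 h. The call after 24 h of submergence (adjusted p 0.023, edgeR) was lost without that replicate (difference -1.39, adjusted p 0.121), without *R. stylosa* 24 h submergence replicate 2 (-1.55, adjusted p 0.0945), with only these 2 groups in the model (adjusted p 0.0573) and with DESeq2 (adjusted p 0.270).

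Roisl.0019s0092 had similar libraries within each submerged group, 30.9, 33.1 and 33.1 CPM after 24 h and 35.1, 43.8 and 38.3 CPM after 48 h in *R. islandica*, against 0.874, 2.28 and 1.18 CPM and 0.717, 1.07 and 2.66 CPM in the controls. In *R. stylosa* its libraries held 166, 146 and 163 CPM after 24 h and 194, 145 and 167 CPM after 48 h of submergence, against 5.58, 15 and 6.44 CPM and 3.64, 8.21 and 4.02 CPM in the controls. Every *R. islandica* library of Roisl.0019s0092 was below every *R. stylosa* library of its group, and its control libraries varied more than 2-fold within every group. The log2 difference was -2.20 ± 0.34 and -2.10 ± 0.34 under water and -2.56 ± 0.41 and -1.90 ± 0.43 in air at 24 and 48 h. The call in 48 h controls (adjusted p 0.0221, edgeR) was lost without *R. islandica* 48 h control replicate 1 (adjusted p 0.104) or 2 (0.0867), without *R. stylosa* 48 h control replicate 2 (0.158), with only these 2 groups in the model (0.0688) and with DESeq2 (0.112).

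Roisl.0046s1153 and Roisl.0003s0352 were the last 2 of the 4 genes named as lowest in *R. islandica* in air. Roisl.0046s1153 had 20.8, 20.2 and 19.2 CPM in *R. islandica* and 44.6, 45.8 and 41 CPM in *R. stylosa* after 24 h of submergence, against 1.48, 0.945 and 1.92 CPM and 5.73, 6.92 and 3.22 CPM in their controls. At 48 h it had 15.8, 12.4 and 17.3 CPM in *R. islandica* and 44.9, 63 and 23.7 CPM in *R. stylosa* under water, against 0.788, 1.35 and 0.968 CPM and 5.53, 6.06 and 6.09 CPM in air. No group of Roisl.0046s1153 overlapped between the species. The estimated difference was -1.04 ± 0.27 at 24 h (adjusted p 0.468, edgeR) and -1.54 ± 0.28 at 48 h (adjusted p 0.0232, edgeR) under water, and -1.88 ± 0.33 at 24 h and -2.57 ± 0.35 at 48 h in air, and whether it differed between water and air was not tested. Without *R. stylosa* 48 h submergence replicate 2 the 48 h value was -1.11 (adjusted p 0.331), without *R. islandica* 48 h submergence replicate 2 its adjusted p was 0.0825, with only these 2 groups in the model 0.0610 and with DESeq2 0.208, and the call in 24 h controls had an adjusted p of 0.0515 without *R. islandica* 24 h control replicate 2.

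Roisl.0003s0352, with 3189 bases the longest coding sequence of the 73 genes, had 72.3, 197 and 134 CPM in *R. islandica* after 24 h of submergence, against 3.91, 3.94 and 4.64 CPM in controls, and 225, 218 and 215 CPM after 48 h, against 4.37, 4.31 and 3.9 CPM. In *R. stylosa* it had 286, 466 and 415 CPM after 24 h of submergence, against 20.3, 19.1 and 16.6 CPM, and 510.2, 557 and 654 CPM after 48 h, against 16.4, 21.1 and 15.5 CPM. Its control libraries agreed closely within each species. Under water Roisl.0003s0352 was at the threshold, with -1.44 ± 0.24 at 24 h and -1.38 ± 0.24 at 48 h (adjusted p 0.0299 and 0.0471, edgeR), and these calls were lost in 6 and in 19 of 30 alternative settings. At 24 h they were lost without *R. islandica* submergence replicate 1 (adjusted p 0.226) or 3 (0.0537) and without *R. stylosa* submergence replicate 2 (0.111) or 3 (0.0812), with DESeq2 (0.271) and with only the groups compared in the model (0.115). At 48 h the highest adjusted p were 0.341 with DESeq2 and 0.116 without *R. stylosa* 48 h submergence replicate 3. The difference in air, -2.16 ± 0.26 at 24 h and -2.17 ± 0.26 at 48 h (adjusted p 8.66e-05 and 9.86e-05, edgeR), passed in every setting tried.

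**Figure D4:**
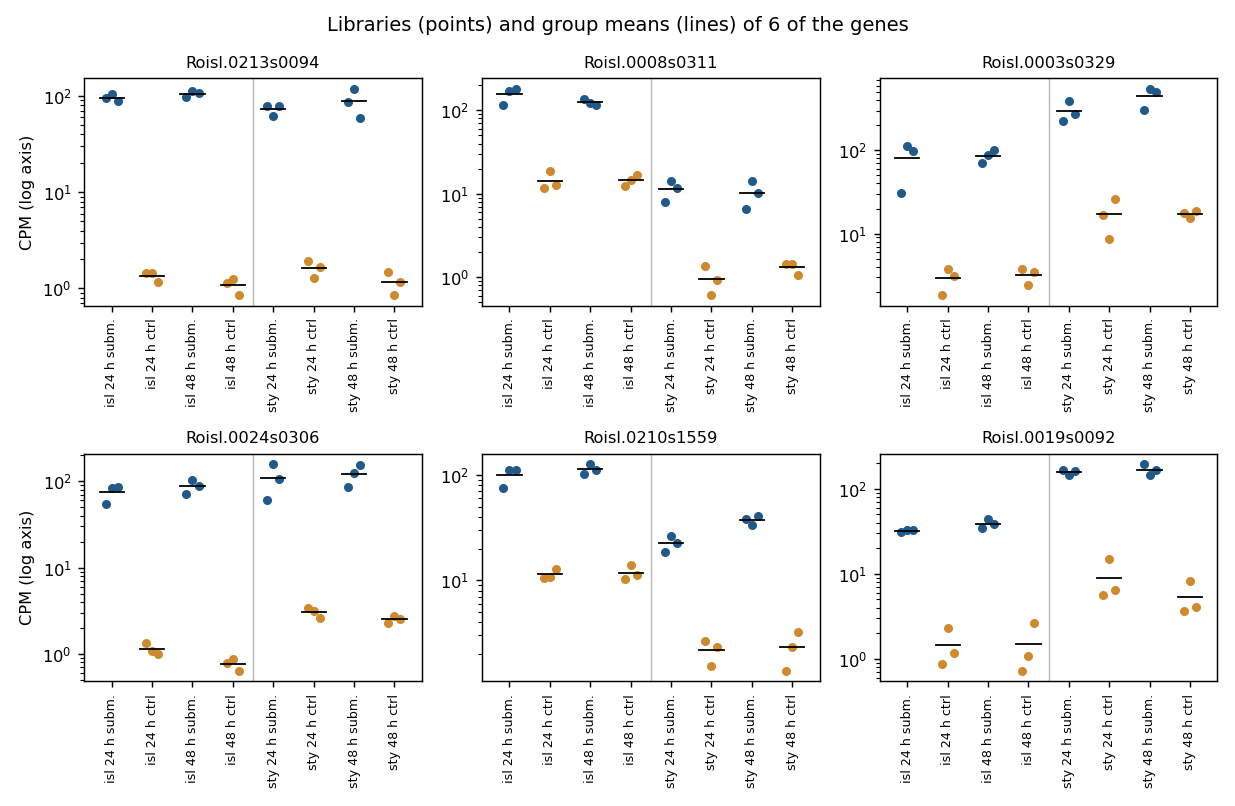
CPM on a log axis of 6 of the genes, with each library as a point and each group mean as a line, submerged groups in blue and control groups in orange, *R. islandica* (isl) left of *R. stylosa* (sty). The left column shows the 2 genes with the largest smallest ratio, the middle column 2 genes higher in *R. islandica* (Roisl.0008s0311, 3.89 ± 0.33 log2 units in 24 h controls) and the right column 2 genes lower in it (Roisl.0003s0329, -2.55 ± 0.45).

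Of the 4 most abundant genes, Roisl.0210s1579 and Roisl.0019s0263 passed in none of the 4 species comparisons. Roisl.0019s0263 came nearest after 48 h of submergence, at -1.28 ± 0.18 (adjusted p 0.0522, edgeR). Roisl.0075s0051 gave a log2 difference of -1.02 ± 0.26 at 24 h and -1.08 ± 0.26 at 48 h under water (adjusted p 0.509 and 0.389, edgeR) and was lower in *R. islandica* in air, at -1.97 ± 0.27 and -2.03 ± 0.27 (adjusted p 5.99e-04 and 3.62e-04, edgeR). Roisl.0011s0425 likewise gave -0.82 ± 0.18 and -0.88 ± 0.18 under water (adjusted p 1 and 0.913, edgeR) and -1.41 ± 0.19 and -1.60 ± 0.19 in air (adjusted p 0.0172 and 0.00191, edgeR). For Roisl.0024s0306 the value after 48 h of submergence was -0.47 ± 0.24 (adjusted p 1, edgeR) and that after 24 h -0.43 ± 0.24. In its controls the value was -1.41 ± 0.33 at 24 h, which did not pass (adjusted p 0.114, edgeR), and -1.81 ± 0.37 at 48 h (adjusted p 0.02, edgeR). Passing in air and not under water does not show that the difference between the species changed, which was not tested.

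None of the 73 genes passed a test between the harvests. In submerged *R. stylosa*, which the rule did not limit in time directly, 0 of the 73 genes passed edgeR's test of 48 h against 24 h in either direction, as did 0% of the 19886 genes tested. At an unadjusted p under 0.05 the count was also 0, and DESeq2 gave 0. No share over all genes was taken in either case. Against no change, 0 of the 73 genes passed, beside 0.297% of all genes that were higher and 0.714% that were lower at 48 h. The fitted log2 change had a median of 0.18 over the 73 genes (range -0.38 to 0.81) and was above 0 in 51 of them, beside a median of -0.01 over all genes. In submerged *R. islandica*, where the rule held the change within 1, the log2 change of the means had a median of 0.04 (range -0.83 to 0.82).

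In controls, 48 h against 24 h gave 0 of 73 genes in either species by the same test, beside 0% of all genes in both species. DESeq2 also gave 0, and no gene of the 73 was under an unadjusted p of 0.05. No share over all genes was taken for these counts. The median log2 change was 0.01 in *R. islandica* (range -1.11 to 0.62) and 0.06 in *R. stylosa* (range -0.72 to 0.57). These tests were against a log2 change of 1, so smaller changes could not have passed. Against no change, 0 of the 73 genes passed in either species as well, beside 0% of all genes tested in both.

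The 73 genes varied more between replicates than most genes did. The median biological coefficient of variation fitted by edgeR was 0.153 over the 73 genes in *R. islandica*, beside 0.118 over all genes, and 0.202 in *R. stylosa*, beside 0.138. The median SD of log2(CPM + 0.5) over 3 libraries lay between 0.133 and 0.332 in the 8 groups, beside 0.107 to 0.168 over all genes. After Roisl.0003s0329, the widest spreads were those of Roisl.0189s0133 (1.02) and Roisl.0184s0067 (0.94) in *R. stylosa* submerged for 24 h, of Roisl.0080s0090 (0.97) and Roisl.0080s0091 (0.94) in 24 h controls of *R. islandica*.

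Many of the genes deviated alike in the same library. In *R. stylosa* submerged for 24 h, replicate 2 was the highest of the 3 libraries for 58 of the 73 genes (79.5%), beside 37.7% of all genes, with a median deviation of 0.24 log2 units from the group mean. In 24 h controls of *R. islandica*, replicate 2 was the highest for 51 (69.9%, beside 38.4% of all genes), and in 48 h controls of *R. stylosa* replicate 2 was the highest for 47 (64.4%, beside 40.7%). In *R. islandica* submerged for 24 h, replicate 1 was the lowest for 50 of the 73 genes, beside 36.2% of all genes, and the highest for 15 (20.5%, beside 48.5%). Replicate 2 was the deepest library in the first of these groups (35953647 counts, against 24127592 and 25521047) and in the second (66692318 counts), and not in the third, and the part of depth in these deviations was not tested. With TMM scaling the median deviations of replicate 2 in these 3 groups were 0.21, 0.20 and 0.15.

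**Figure D5:**
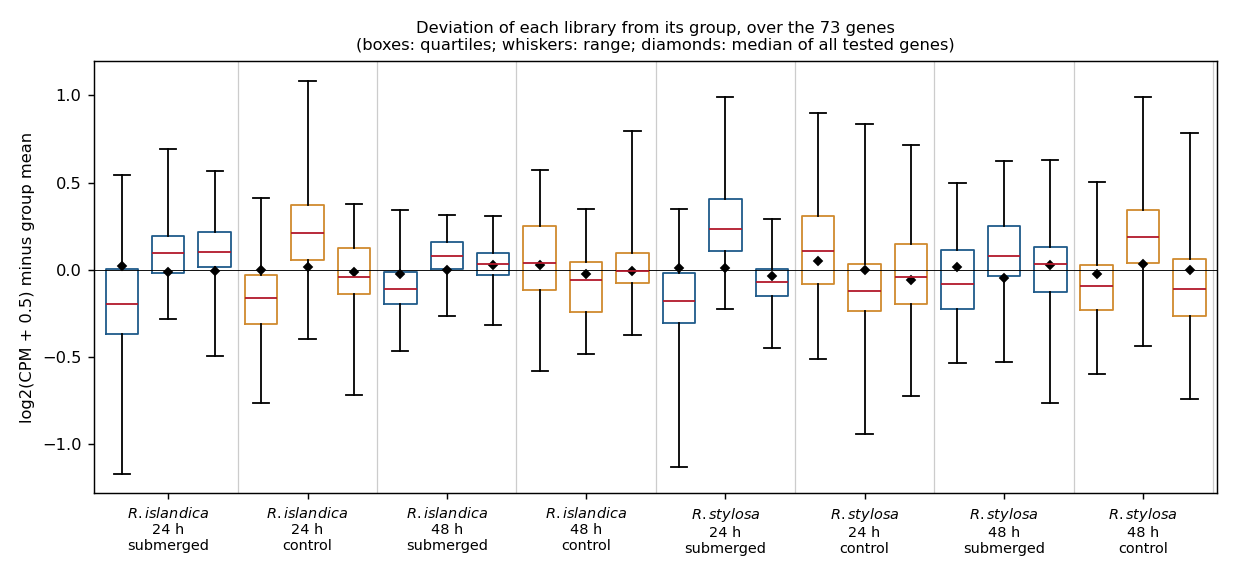
Deviation of log2(CPM + 0.5) from the group mean over the 73 genes in each library, replicates 1 to 3 from left to right in each group, with boxes for quartiles, whiskers for the range and diamonds for the median of all genes tested. The diamonds stay near 0, whereas the box of *R. stylosa* 24 h submergence replicate 2 is shifted upward (median 0.24, highest library for 58 genes).

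The 73 genes were spread over 33 scaffolds. Their median coding length was 924 bases (237 to 3189), beside 1089 over all genes tested. An orthogroup is a set of genes in several species that descend from 1 ancestral gene, and 69 of the 73 genes (94.5%) were the only *R. islandica* gene of theirs, beside 78.7% of all genes tested. All 73 were in orthogroups marked in the tables as universal, beside 88.4% of all genes tested. More than 1 transcript was listed for 3 of the 73 genes (4.11%), beside 7.16% of all genes. Since the rule asked for counts of both species on transcripts of *R. islandica*, it may itself favour genes with well-matched reads, and these shares are given without a test.

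A single pair of the 73 genes shared an orthogroup, Roisl.0003s0329 and Roisl.0082s0516, which lie on different scaffolds and have coding lengths of 1473 and 1458 bases. Roisl.0082s0516 had 18.7, 26.1 and 29 CPM in *R. islandica* and 12.4, 28.5 and 17.5 CPM in *R. stylosa* after 24 h of submergence, against 2.72, 2.74 and 2.44 CPM and 2.55, 2.14 and 1.61 CPM in their controls. At 48 h it had 18.7, 26.7 and 24.3 CPM in *R. islandica* and 27.6, 19.1 and 26.1 CPM in *R. stylosa* under water, against 2.38, 2.02 and 1.94 CPM and 1.86, 2.88 and 1.05 CPM in air. The species overlapped in all 4 groups of Roisl.0082s0516, unlike those of Roisl.0003s0329. Averaged over groups, Roisl.0003s0329 had 156 CPM per kb under water, against 6.85 CPM per kb in air, and Roisl.0082s0516 had 15.7 CPM per kb under water, against 1.51 CPM per kb in air.

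Only 2 pairs had adjacent numbers on a scaffold, and the members of each pair belonged to different orthogroups. Of the first pair, Roisl.0080s0090 had 29.2, 29.2 and 30.2 CPM in *R. islandica* and 25.8, 23.9 and 23 CPM in *R. stylosa* after 24 h of submergence, against 0.631, 3.58 and 1.04 CPM and 1.38, 2.92 and 1.61 CPM in their controls. After 48 h, Roisl.0080s0090 had 26.1, 27.8 and 30.7 CPM in *R. islandica* and 31.9, 23.5 and 53.1 CPM in *R. stylosa*, against 1.4, 1.33 and 1.97 CPM and 1.19, 2.64 and 0.972 CPM in controls. In 24 h controls of *R. islandica* and in both control groups of *R. stylosa*, replicate 2 was the highest library for Roisl.0080s0090 as it was for its neighbour Roisl.0080s0091. Under water, Roisl.0080s0091 had 270.5 CPM per kb, against 7.19 CPM per kb in air, and Roisl.0080s0090 had 39.1 CPM per kb, against 2.28 CPM per kb in air.

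The second pair was Roisl.0066s0163 and Roisl.0066s0164. Roisl.0066s0163 had 107, 162 and 147 CPM in *R. islandica* and 67.5, 89.6 and 79.9 CPM in *R. stylosa* after 24 h of submergence, against 6.82, 8.17 and 8.65 CPM and 4.57, 4.31 and 4.99 CPM in their controls. At 48 h it had 136, 148 and 147 CPM in *R. islandica* and 77.5, 98.1 and 106 CPM in *R. stylosa* under water, against 8.53, 7.65 and 10.7 CPM and 5.47, 6.25 and 4.66 CPM in air. Its ratios were nearly equal, 4.05 and 3.93 in *R. islandica* and 3.95 and 3.98 in *R. stylosa* at 24 and 48 h. Roisl.0066s0164 had 16.2, 20.2 and 18.5 CPM in *R. islandica* and 8.91, 8.4 and 9.52 CPM in *R. stylosa* after 24 h of submergence, against 1.55, 1.74 and 1.02 CPM and 0.898, 0.927 and 0.955 CPM in their controls. After 48 h, Roisl.0066s0164 had 15, 21.3 and 19 CPM in *R. islandica* and 10.1, 12.3 and 13.6 CPM in *R. stylosa*, against 1.97, 1.79 and 1.54 CPM and 0.647, 1.18 and 0.768 CPM in controls. Both genes were higher in each submerged *R. islandica* library than in the *R. stylosa* libraries of the same time. Neither passed edgeR's test against a log2 difference of 1 in any of the 4 species comparisons. Tested against no difference, both were higher in *R. islandica* in all 4. The adjusted p were 4.08e-05 to 0.00407 for Roisl.0066s0163 and 5.50e-06 to 0.0127 for Roisl.0066s0164 (edgeR). By that test 35.6% to 38.1% of all genes were higher in *R. islandica*.

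Genes around the 73 were taken from lists that did not depend on how the genes moved. The orthogroups of the 73 genes held only 2 further *R. islandica* genes, Roisl.0046s1092 and Roisl.0184s0064. The first of them is also numbered next to Roisl.0046s1093, so it is in the list of neighbours below as well. Roisl.0046s1092, of the orthogroup of Roisl.0046s1093, had 114, 123 and 121 CPM in *R. islandica* after 24 h of submergence, against 39.3, 32.6 and 38.9 CPM in controls, and 129, 136 and 131 CPM after 48 h, against 39.4, 43.3 and 42.3 CPM. In *R. stylosa*, Roisl.0046s1092 had 311, 339 and 327 CPM after 24 h of submergence, against 199, 188 and 203 CPM, and 387, 354 and 366 CPM after 48 h, against 156, 198 and 200.2 CPM. Its submerged libraries stood above its control libraries in all 4 comparisons. In *R. islandica* Roisl.0046s1092 rose by 1.56 ± 0.09 and 1.48 ± 0.09 log2 units at 24 and 48 h (adjusted p 3.87e-05 and 1.28e-04, edgeR), beside 11.7% and 12.5% of all genes tested that rose, and in *R. stylosa* its values were 0.51 ± 0.11 and 0.71 ± 0.11 (adjusted p 1 and 1, edgeR).

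Roisl.0184s0064, of the orthogroup of Roisl.0184s0067, had 79.2, 64.9 and 70.6 CPM in *R. islandica* after 24 h of submergence, against 29.3, 29.1 and 29.1 CPM in controls, and 167, 127 and 121 CPM after 48 h, against 30.5, 25.3 and 30.4 CPM. In *R. stylosa* it had 18.1, 42 and 27.7 CPM after 24 h of submergence, against 15.3, 8.79 and 10.3 CPM, and 24.4, 40.2 and 39.9 CPM after 48 h, against 9.31, 12.3 and 9.69 CPM. It rose by 2.09 ± 0.13 log2 units in *R. islandica* at 48 h (adjusted p 2.53e-06, edgeR), while the other 3 values of Roisl.0184s0064 were 1.16 ± 0.13 in *R. islandica* at 24 h and 1.15 ± 0.30 and 1.46 ± 0.30 in *R. stylosa* at 24 and 48 h (adjusted p 0.136, 0.615 and 0.0972, edgeR). Neither of the 2 relatives passed in all 4 comparisons, beside 4.43% of all genes tested that rose in all 4. Against no change both rose in all 4, a test that 35.1% and 37.3% of all genes passed upward in *R. islandica* and 28.9% and 34% in *R. stylosa* at 24 and 48 h, and 19.1% in all 4 comparisons.

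The genes numbered next to the 73 on their scaffolds were 141, and the models of *R. islandica* and *R. stylosa* tested 105 and 100 of them. At 24 h in *R. islandica*, 19 rose and 12 fell, beside 11.7% and 10.5% of all genes, and 17 rose and 23 fell at 48 h, beside 12.5% and 13.5%. In *R. stylosa*, 8 rose and 3 fell at 24 h, beside 7.77% and 4.92%, and 10 rose and 13 fell at 48 h, beside 10.5% and 9.26%. Of the 96 neighbours tested in both species, 3 rose in all 4 comparisons, beside 4.43% of all genes, and 3 fell in all 4, beside 2.8%. Against no change, 28 neighbours rose in all 4, beside 19.1% of all genes, and 18 fell, beside 18.1%. The median log2 change of the neighbours was 0.10 and 0.20 in *R. islandica* and 0.21 and 0.17 in *R. stylosa* at 24 and 48 h, beside 0.00, 0.02, 0.01 and 0.01 over all genes tested.

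The rule used the sum over isoforms, so the share of each isoform was free to vary. For the 3 genes with more than 1 transcript, the share of the transcript with the most counts over all 24 libraries was compared between the 6 submerged and the 6 control libraries of a species by a two-sided exact permutation test, whose smallest possible p is 0.00216, with Benjamini-Hochberg adjustment over 6 tests. Roisl.0213s0094 has 3 transcripts. In *R. stylosa* its second one, Roisl.0213s0094.2, held 70.9 ± 1.79% of the counts of the gene under water (SD, n = 6; 69.3 to 74.3%), against 79.9 ± 5.86% in air (SD, n = 6; 74.7 to 91.0%). These ranges did not overlap, and the share fell by 8.98 percentage points (exact permutation p 0.00216, adjusted 0.00649). This test was unpaired and took the 6 libraries of a treatment as independent, although same-numbered controls of both harvests in *R. stylosa* deviated alike (correlations across genes of 0.243, 0.112 and 0.413). In *R. islandica*, Roisl.0213s0094.2 held 79.8 ± 2.66% under water, against 85.9 ± 8.73% in air (SD, n = 6 each), a difference of -6.09 that did not pass (adjusted p 0.211, exact permutation test). Without *R. islandica* 48 h control replicate 3, that difference was -8.71 (adjusted p 0.0130, exact permutation test). The estimated counts behind the shares of Roisl.0213s0094 in air were between 20.4 and 78.2 per library for the second transcript, so the control shares rest on few reads.

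Roisl.0049s0047 has 2 transcripts, and its gene sum was 192, 225 and 222 CPM in *R. islandica* after 24 h of submergence, against 13.6, 14.2 and 12.9 CPM in controls. In *R. islandica*, Roisl.0049s0047.1 held 100% of the gene sum under water, the second transcript being listed at 0 in 5 of the 6 libraries, against 96.6 ± 3.65% in air (SD, n = 6), where the second transcript had between 1.52 and 39.5 estimated counts per library. This difference of 3.42 percentage points gave an exact permutation p of 0.00216 (adjusted 0.00649), and the adjusted p was 0.0584 when any 1 of the 6 submerged libraries was left out. In *R. stylosa* the second transcript of Roisl.0049s0047 had counts in 1 of 12 libraries, a 24 h control with 22.4 (adjusted p 1, exact permutation test). The third gene, Roisl.0210s2053, showed a species difference in the listed isoforms: Roisl.0210s2053.2 held 45.4 ± 6.10% under water and 48.1 ± 10.1% in air in *R. islandica* (SD, n = 6 each; adjusted p 0.722, exact permutation test), whereas in *R. stylosa* it held 100% in every library within rounding. In *R. islandica* Roisl.0210s2053.2 thus held less than the other transcript on average. Single libraries went either way, with shares of 39.2 to 56.3% under water and 31.2 to 62.4% in air. How the reads of *R. stylosa* match the isoforms of *R. islandica* was not tested.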

How the data were processed

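The authors selected polyadenylated RNA, checked the reads with FastQC 0.12.0, ran kallisto on the libraries of both species with the *R. islandica* transcripts as reference, and deposited the expected counts (estimated counts) of 32703 transcripts without normalization, of which 11.8% were not whole numbers. Columns carry a 1 or a 2, read as the 24 and 48 h harvests, and a Roman numeral, read as the replicate. Here isoforms were summed to 30646 genes, log2 ratios were taken from CPM by column total, and rounded sums were tested with edgeR 4.0.16 in R 4.3.3 (filterByExpr, TMM, glmQLFit, glmTreat at a log2 threshold of 1, Benjamini-Hochberg adjustment over all genes tested). Species were compared in a joint model of all 24 libraries, and harvests and treatments in 2 models, each of 12 libraries of 1 species. Coding length is that of the longest transcript of a gene. DESeq2 1.42.0 was an alternative, as the study tested with it. Scripts were tested on simulated data. The genes and lists were chosen with earlier results of these data known.

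Genes were named by rule: the 4 with the largest smallest ratio, the 4 with the highest mean CPM under water, the 4 highest and 4 lowest of those that differed between the species in both control groups, the 2 on each side of the ratio limit, genes sharing an orthogroup or with close numbers on a scaffold, those with a called isoform share, and the 2 relatives in their orthogroups. Roisl.0046s1093, Roisl.0184s0067 and Roisl.0189s0133 were named after their values were seen, and Roisl.0210s2053 to complete the genes with more than 1 transcript. The other alternatives were DESeq2's size factors, no filter on low counts, a null hypothesis of no change, a block for replicate number, models of the compared groups alone, other scalings and offsets, and each library left out in turn.

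Counts of replicates differed by more than sampling noise in every pair (chi-square per degree of freedom 11.6 to 155, highest between *R. stylosa* 48 h control replicates 1 and 2), so each library was counted as 1 sample. The study describes pooling of plants for its PCR samples, and whether it holds for the RNA-seq libraries is not given in the sources used here, so p-values measure the spread between these samples. The replicate numbers were checked as pairs by the correlation across genes of deviations from the group means. All 3 same-numbered pairs were above 0.1 only for the *R. stylosa* controls at 48 and 24 h (0.243, 0.112 and 0.413). The labels number the replicates, and the study states that *R. stylosa* was propagated separately for each. Whether same-numbered libraries of both harvests came from the same propagation is not stated. The tests above had no term for replicate number, and a model with such a block is given below. Precision of low controls is limited by depth: at the smallest control total of 27908330 counts, a level near 1 CPM rests on few estimated counts.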

Additional observations from a re-analysis of the deposited data

How the results depend on the processing

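Over the alternatives, 960 values of species differences were computed for the 8 genes named for them, of which 917 kept their direction and side of the threshold, 42 lost the call, 1 gained it and 0 reversed. Many of these settings left out a library outside the 2 groups compared, which can hardly move a value. The 8 genes were also chosen for their calls in air, so the number kept is no measure of stability. The counts depended most on the null hypothesis. Tested against no change, 30 genes were higher and 15 lower in *R. islandica* at 24 h under water, 23 higher and 19 lower at 48 h under water, 22 higher and 21 lower at 24 h in air, and 19 higher and 20 lower at 48 h in air. With DESeq2, 2 genes were lower after 24 h and 4 after 48 h of submergence, and with only the groups compared in the model 2 were lower after 24 h. The share of all genes called was not taken in these settings or with a library left out. Leaving out 1 library gave 2 to 6 lower genes after 24 h of submergence, 5 to 9 after 48 h of it, and 67 to 78 genes that met the rule. TMM scaling gave 58 genes by the rule (53 of them shared) and an offset of 1 gave 65 (60 shared). Against no change, 28 of 96 neighbouring genes rose in all 4 comparisons (19.1% of all genes tested) and 18 fell (18.1%), and 2 orthogroup relatives rose. Roisl.0046s1092 is counted both as a neighbour and as a relative.

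Isoform shares in air rest on few counts of the gene for Roisl.0213s0094 and on few counts of the second transcript for Roisl.0049s0047. Leaving out 1 library moved the difference between 2.10 and 4.05 percentage points for Roisl.0049s0047.1 in *R. islandica*, over 0 to 0.895 for it in *R. stylosa*, between -6.03 and 0.209 for Roisl.0210s2053.2 in *R. islandica* (above 0 without 48 h control replicate 1), and between -8.71 and -3.65 for Roisl.0213s0094.2 in *R. islandica*. With a minimum of 30 counts in every library that last gene was not tested in *R. islandica*, whose 48 h control replicate 3 lay below it. A model with a replicate block gave 11 higher and 4 lower genes at 24 h under water, 7 higher and 9 lower at 48 h under water, 7 higher and 9 lower at 24 h in air, 7 higher and 10 lower at 48 h in air, and 0 genes between harvests. The share of all genes called was not taken with this block, so its counts are a description. Same-numbered pairs other than the *R. stylosa* controls did not all correlate above 0.1. The block moved no count by over 1.5 times. The cause of these changes was not tested.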
